A study of Mus musculus with 16 samples.

Results

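Translation initiation factors were taken as the mouse genes whose symbol begins with Eif and a digit, without the Eif2ak kinases and without genes on the X or Y chromosome. The rule gave 40 genes among the 18193 that had a probe set naming 1 gene alone, and it used no expression value beyond choosing, per gene, the probe set with the highest mean over the 16 arrays. Of these, 39 passed the filter on dim signals and were tested with 11451 genes in all. Eif4a3, a helicase of the exon junction complex, had a single-gene probe set that lay above the array median on 0 arrays, with group means between 8.22 and 10.9 signal units, and it was not tested. The rule left out 4 Eif2ak kinases and 3 genes on X or Y. Eif3j1, Eif3j2 and Eif4ebp3 lay only on probe sets of several genes, and Eif1, Eif2s1, Eif3g and Eif4g1 were not analysed here.

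RNA came from mouse embryonic fibroblasts (MEF), the connective tissue cells that grow out of embryos in culture, on 16 Affymetrix arrays. The 4 groups were CHOP-/- cells given the proteasome inhibitor MG132 (1 µM, 8 hours), CHOP-/- cells without it, CHOP+/+ (wild-type) cells given MG132 at the same dose and time, and wild-type cells without it, with 4 plates and arrays each. The cells without MG132 are called untreated, although their descriptions name DMSO as a vehicle and their treatment field names none. Nothing in the labels ties the plates of a genotype to separate embryos or lines, so p-values reflect plate-to-plate spread, and genotype cannot be told apart from the cell isolation.

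Initiation of translation brings the small ribosomal subunit, the initiator tRNA and an mRNA together. eIF2 carries the initiator tRNA as a GTP-bound complex and eIF2B recharges eIF2 with GTP, while eIF1, eIF1A, eIF3 and eIF5 assemble on the small subunit. eIF4E binds the mRNA cap, eIF4A unwinds the leader with the help of eIF4B and eIF4H, eIF4G holds them together, and the 4E-binding proteins (4E-BPs) keep eIF4E from eIF4G until mTORC1 phosphorylates them. Stress kinases phosphorylate the alpha subunit of eIF2, which lowers general initiation and favours translation of ATF4. CHOP, encoded by Ddit3, is a transcription factor of the same pathway.

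Promoter sequence was available from RefSeq (GRCm38.p6) for 31 of the 40 genes, from 250 bases before to 50 bases after the transcription start. The core of the heat shock element, GAANNTTC, was searched on both strands because MG132 induces heat shock genes, and it stood in 4 of 31 promoters (12.9%), against 9.0% of the 27025 genes in the table. The following 60-base windows are from the 3 of those genes that rose with MG132 in both genotypes, read along the gene's strand, with the match in capitals. They lie at chr19:60790814-60790873 on the minus strand (Eif3a), chr7:108934286-108934345 on the plus strand (Eif3f) and chr1:37997825-37997884 on the plus strand (Eif5b).
Eif3a: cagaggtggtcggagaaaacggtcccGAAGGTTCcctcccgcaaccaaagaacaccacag
Eif3f: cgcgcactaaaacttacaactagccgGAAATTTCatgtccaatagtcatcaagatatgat
Eif5b: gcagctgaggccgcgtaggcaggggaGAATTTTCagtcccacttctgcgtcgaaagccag
The match began 154 bases (Eif3a), 103 bases (Eif3f) and 159 bases (Eif5b) before the start site. Eif5a2, the fourth gene, held 2 matches, and it rose in wild-type but not in CHOP-/- cells (log2 changes 0.28 and -0.038). Of the 39 tested members, 48.7% rose in both genotypes. A link between matches and changes was not tested. The composite element of C/EBP and ATF proteins, TGATGNAA, was in 0 of 31 member promoters and in 4.5% of all. GGGCGG, the core of the GC box, was in 24 of 31 (77.4%) against 38.2% of all, and CCAAT in 12 of 31 (38.7%) against 41.1%. GGGCGG and CCAAT were not among the motifs planned. The 27025 genes are not limited to those that passed the filter on dim signals, as 39 of the 40 members did. A match describes the letters in these windows and is no evidence of binding.

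Signals are linear MAS5 intensities, scaled by the authors so that every array had a trimmed mean of 1000. The deleted gene followed its label, with Ddit3 at 396 ± 38.9 in MG132-treated and 368 ± 24.0 in untreated CHOP-/- cells, against 7724 ± 587 in MG132-treated and 1017 ± 101 in untreated wild-type cells (SD, n = 4 each). Hspa1a, the inducible HSP70, averaged 24234 with MG132 and 713 without it in CHOP-/- cells, and 36336 with MG132 and 1208 without it in wild-type cells. All 8 fibroblast markers lay above the array median on 16 arrays, and Ptprc, Cdh1, Pecam1 and Cdh5 did so on 0. The 8 fibroblast markers summed to 101952 to 106738 units per array in treated and 122769 to 136722 in untreated CHOP-/- cells, and to 116301 to 127055 in treated and 121069 to 138764 in untreated wild-type cells. With MG132, 1 marker rose and 6 fell in CHOP-/- cells, and 2 rose and 5 fell in wild-type cells. Between genotypes, Col3a1 and Thy1 were higher and Col1a1, Pdgfrb and Prrx1 lower in CHOP-/- than in wild-type cells at both treatments. Thy1 averaged 2074 and 2727 in treated and untreated CHOP-/- cells, against 274 and 227 in treated and untreated wild-type cells, and Col1a1 averaged 4727 and 10951 in treated and untreated CHOP-/- cells, against 12731.5 and 19282 in treated and untreated wild-type cells. Among the other leukocyte, epithelial and endothelial markers, Cd68, Csf1r, Epcam, Krt8 and Kdr were bright enough to be tested, at group means between 43.9 and 321. The 3' to 5' signal ratio of Actb, a measure of RNA integrity, was 1.19 to 1.23 with MG132 and 1.14 to 1.16 without it in CHOP-/- cells, and 1.19 to 1.27 with MG132 and 1.11 to 1.19 without it in wild-type cells. The upper quartile of the signals was 792 to 815 and 858 to 879 in treated and untreated CHOP-/- cells, and 828 to 843 and 865 to 914 in treated and untreated wild-type cells. The part of these marker and array differences in the results was not tested.

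MG132 moved the RNA of most initiation factors by small amounts, with more members up than down in both genotypes. Over the 39 tested members, 22 rose and 6 fell in CHOP-/- cells, where 25.7% of all tested genes rose and 36.8% fell, and 23 rose and 6 fell in wild-type cells, where 27.2% of all tested genes rose and 36.9% fell (limma, Benjamini-Hochberg adjusted p under 0.05). The members' share of higher calls was 56.4% in CHOP-/- cells and 59.0% in wild-type cells, and that of lower calls 15.4% in each. The median change was 0.18 on the log2 scale in both genotypes, against a median of all tested genes of -0.074 in CHOP-/- and -0.070 in wild-type cells. Genes with signals as high as the members' median also rose more often than they fell. Of the 690 tested genes at or above 12338 signal units, 52.0% rose and 22.6% fell in CHOP-/- cells, and 47.5% rose and 23.0% fell in wild-type cells. These changes are relative to each array's common mean, and in bulk samples fewer cells of a type and less RNA per cell cannot be told apart. Centring each array on the median of the tested genes moved the median of all genes by 0.14 (CHOP-/-) and 0.20 (wild-type) and gave 29 higher and 4 lower members in CHOP-/- cells and 29 higher and 3 lower in wild-type cells. Under this centring 34.9% of all tested genes rose and 27.7% fell in CHOP-/- cells, and 40% rose and 25% fell in wild-type cells. Quantile normalisation gave 18 higher and 9 lower members in CHOP-/- cells and 19 higher and 9 lower in wild-type cells. All tested genes then stood at 27.7% higher and 34.1% lower in CHOP-/- cells, and 28.2% higher and 35.9% lower in wild-type cells. The mean of all probe sets gave 15 higher and 5 lower members in each genotype. Of all tested genes, 22% then rose and 33% fell in CHOP-/- cells, and 25% rose and 31.4% fell in wild-type cells. Centring on all probe sets gave 25 higher members in CHOP-/- cells and 17 in wild-type cells, where 25.7% and 21.9% of all tested genes rose.

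**Figure D1:**
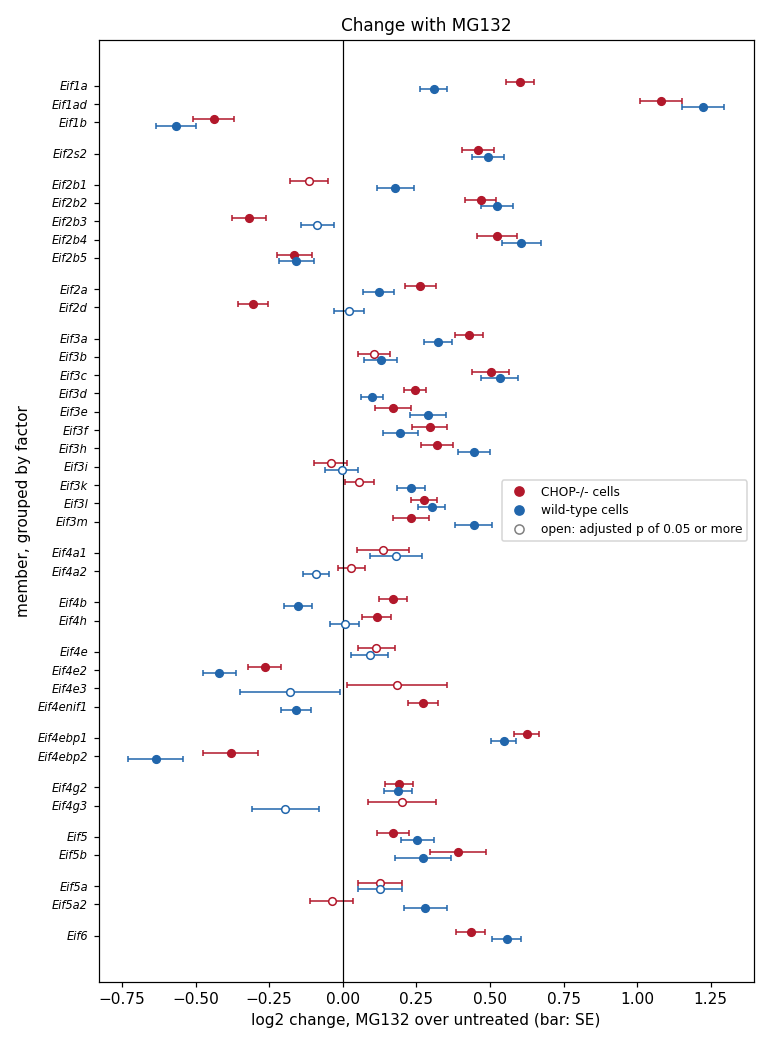
Change of each tested initiation factor with MG132 (log2 of MG132 over untreated, bar: SE) in CHOP-/- cells (red) and wild-type cells (blue), grouped by factor, with open points where the adjusted p was 0.05 or more. Most points lie between 0 and 0.6, Eif1ad lies beyond 1 in both genotypes, and Eif4b and Eif4enif1 lie on opposite sides of 0, although their wild-type values turned positive under median centring.

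Of the 39 members, 3 in each genotype were called with a change of at least 1.5-fold. They were Eif1ad, Eif4ebp1 and Eif1a in CHOP-/- cells, and Eif1ad, Eif2b4 and Eif4ebp2 in wild-type cells. The share of all tested genes past this cut was not counted. Across the 39 members, 19 rose in both genotypes (48.7%, against 18.7% of all tested genes), 4 fell in both (10.3%, against 27.8%) and 2 were called in opposite directions (5.13%, against 2.78%). The 2 responses share no array, and they correlated across members with r = 0.84 and rho = 0.77 (n = 39 genes, which share arrays and are not independent). Over all 11451 tested genes r was 0.73. The change had the same sign in both genotypes for 79.5% of members and 77.9% of all tested genes.

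Among the genes grouped by symbol with eIF1 and eIF1A, Eif1ad changed most. Eif1ad encodes a protein with an eIF1A-type domain. Its signals on the 4 arrays were 10586.5, 10109, 10216 and 12026 in MG132-treated CHOP-/- cells and 5019, 4820.2, 5453 and 4935 in untreated ones. They were 8132, 7155, 7300.1 and 7605 in MG132-treated wild-type cells and 2747, 3394, 3484 and 3309 in untreated ones. Every treated array lay above every untreated array of its genotype, and every CHOP-/- array above every wild-type array of its treatment. The log2 change with MG132 was 1.08 ± 0.071 (SE; adjusted p = 5.03e-11) in CHOP-/- cells and 1.22 ± 0.071 (SE; adjusted p = 6.73e-12) in wild-type cells, and the difference between these responses did not pass (-0.14 ± 0.10, adjusted p = 0.316). Eif1a, which encodes the eIF1A that positions the initiator tRNA in the ribosomal A site region, rose by 0.60 ± 0.046 in CHOP-/- cells and 0.31 ± 0.046 in wild-type cells. Eif1b, a close relative of the start codon selection factor eIF1, moved the other way. It averaged 2537 ± 216 with MG132 and 3441 ± 214 without it in CHOP-/- cells, and 2060.3 ± 111 with MG132 and 3063 ± 240.2 without it in wild-type cells, a log2 change of -0.44 ± 0.069 in CHOP-/- and -0.57 ± 0.069 in wild-type cells.

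**Figure D2:**
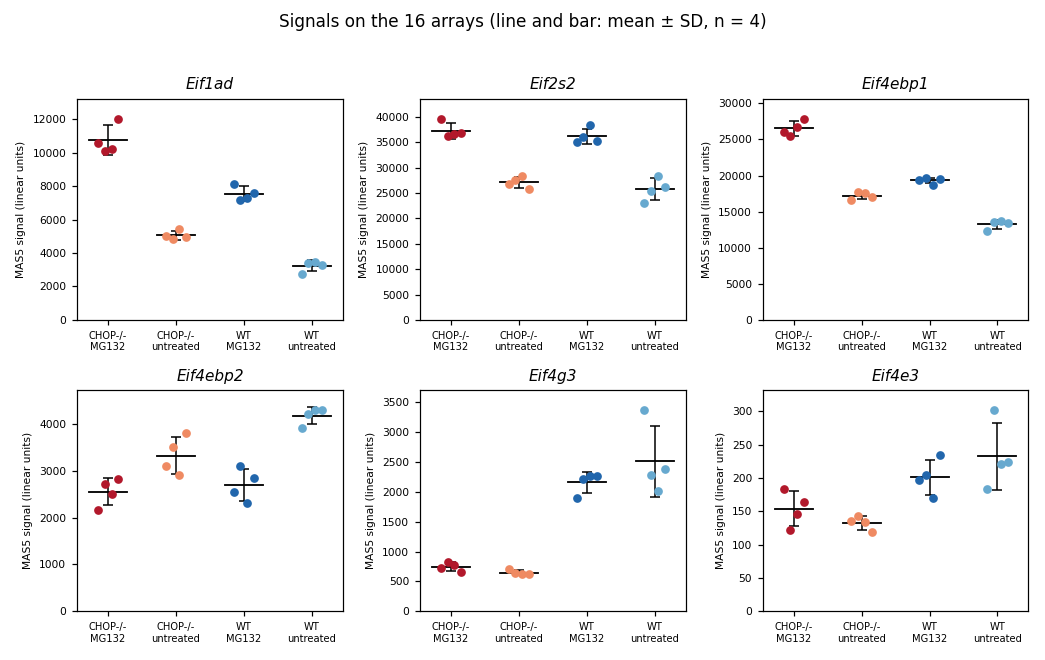
MAS5 signals (linear units, axis from 0) of 6 initiation factor genes on each array, with 4 points per group and the mean ± SD as a line and bar. Eif1ad, Eif2s2 and Eif4ebp1 are higher with MG132 in both genotypes and Eif4ebp2 lower, and Eif4g3 separates by genotype, with all CHOP-/- arrays at 823 or less and all wild-type arrays at 1892 or more.

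Eif2s2, the beta subunit of eIF2, rose in both genotypes. Its signals were 39672, 36168, 36710.1 and 36809.9 in MG132-treated CHOP-/- cells, against 26784, 27630.4, 28387 and 25768 in untreated ones. In wild-type cells they were 35073, 36028.5, 38392 and 35320 with MG132, against 23036, 25494, 28305 and 26234.5 without it. Treated and untreated arrays did not overlap in either genotype, and the genotypes overlapped at each treatment. The log2 change was 0.46 ± 0.055 (SE; adjusted p = 3.33e-07) in CHOP-/- cells and 0.49 ± 0.055 (SE; adjusted p = 1.1e-07) in wild-type cells.

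The 5 subunits of eIF2B did not move together. Eif2b2 and Eif2b4, the beta and delta subunits of the regulatory core, rose in both genotypes, Eif2b2 by 0.47 in CHOP-/- and 0.52 in wild-type cells, and Eif2b4 by 0.52 in CHOP-/- and 0.61 in wild-type cells (log2). Eif2b4 averaged 6466 ± 530.2 with MG132 and 4486 ± 241 without it in CHOP-/- cells, and 6358 ± 431 with MG132 and 4175 ± 335 without it in wild-type cells. Eif2b3, the gamma subunit, fell by 0.32 ± 0.057 on the log2 scale in CHOP-/- cells, and its change in wild-type cells was -0.087 ± 0.057 (adjusted p = 0.19). Eif2b5, the catalytic epsilon subunit, fell in both genotypes, with log2 changes of -0.16 ± 0.059 in CHOP-/- cells and -0.16 ± 0.059 in wild-type cells. The CHOP-/- call of Eif2b5 was lost without the treated replicate 1 (-0.14) or the untreated replicate 2 (-0.12), and the wild-type call was lost without any 1 of 5 arrays. Under median centring Eif2b5 had -0.020 (adjusted p = 0.778) in CHOP-/- and 0.045 (adjusted p = 0.505) in wild-type cells. Eif2b1, the alpha subunit that bridges the complex, had -0.11 ± 0.063 in CHOP-/- cells (adjusted p = 0.122) and rose by 0.18 ± 0.063 in wild-type cells, a call that was lost without wild-type treated replicate 3 or untreated replicate 1 or 4 (0.13 to 0.15).

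The unconventional tRNA carriers eIF2A and eIF2D, which are no subunits of eIF2, differed from each other. Eif2a rose by 0.26 ± 0.052 on the log2 scale in CHOP-/- cells and by 0.12 ± 0.052 in wild-type cells, where the adjusted p was 0.0499 and the call was lost without any 1 of 13 arrays (adjusted p 0.0511 to 0.149). The mean of its probe sets gave Eif2a 0.21 (adjusted p = 0.112) in CHOP-/- cells. Eif2d averaged 2697 ± 118 in treated and 3337 ± 132 in untreated CHOP-/- cells, a change of -0.31 ± 0.051 (SE; adjusted p = 2.59e-05), or -0.18 (adjusted p = 0.124) over the mean of its probe sets. In wild-type cells it averaged 4076 ± 72.4 with MG132 and 4023 ± 251 without it, a change of 0.02 ± 0.051 (adjusted p = 0.744).

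eIF3, the many-subunit scaffold on the small ribosomal subunit, was the largest factor group and its measured members mostly rose. Of 11 tested subunits, 8 rose and 0 fell in CHOP-/- cells, and 10 rose and 0 fell in wild-type cells. Of all tested genes, 25.7% rose and 36.8% fell in CHOP-/- cells, and 27.2% rose and 36.9% fell in wild-type cells. Of the 690 tested genes at or above 12338 signal units, 52.0% rose in CHOP-/- cells and 47.5% in wild-type cells. The eIF3 changes ran between -0.042 (Eif3i) and 0.50 (Eif3c) on the log2 scale in CHOP-/- cells. In wild-type cells they ran between -0.0046 (Eif3i) and 0.53 (Eif3c). Eif3c, a core subunit that binds eIF1 and eIF5, averaged 30764.5 ± 798 with MG132 and 21725 ± 859.8 without it in CHOP-/- cells, and 33162 ± 1240.3 with MG132 and 23040.2 ± 2805 without it in wild-type cells. Eif3a, the largest core subunit, rose by 0.43 ± 0.049 in CHOP-/- cells and 0.32 ± 0.049 in wild-type cells, and Eif3h by 0.32 ± 0.054 in CHOP-/- and 0.45 ± 0.054 in wild-type cells. Eif3f, which like Eif3h has an MPN domain, rose by 0.30 ± 0.059 in CHOP-/- and 0.19 ± 0.059 in wild-type cells, the wild-type change being 0.067 (adjusted p = 0.234) under quantile normalisation.

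Eif3m, another core subunit, rose by 0.23 ± 0.062 in CHOP-/- and 0.44 ± 0.062 in wild-type cells, and Eif3l, a peripheral one, by 0.27 ± 0.045 in CHOP-/- and 0.30 ± 0.045 in wild-type cells. Eif3k, the partner of Eif3l, changed by 0.056 ± 0.049 (adjusted p = 0.335) in CHOP-/- cells and rose by 0.23 ± 0.049 in wild-type cells. Eif3i, a WD-repeat subunit, had 22047.5 ± 573 and 22737 ± 1706 units in treated and untreated CHOP-/- cells, and 22543 ± 1148 and 22635 ± 1580.3 in treated and untreated wild-type cells. The wild-type rise of Eif3b, another core subunit with an RNA recognition motif, was 0.13 ± 0.055 (adjusted p = 0.0479), and this call was lost without any 1 of 11 arrays. That of Eif3d, a subunit that can bind the mRNA cap, was 0.099 ± 0.038, and it was lost without wild-type treated replicate 1 or 4 or untreated replicate 1 (0.069 to 0.095). Eif3e rose by 0.17 ± 0.061 in CHOP-/- and 0.29 ± 0.061 in wild-type cells, and its CHOP-/- call was lost without treated replicate 3 or untreated replicate 4 (0.14 to 0.16) and under quantile normalisation (0.0076, adjusted p = 0.835). Quantile normalisation gave 7 higher and 1 lower eIF3 subunit in each genotype, the lower being Eif3i (-0.20 in CHOP-/- and -0.14 in wild-type cells), with Eif3d at -0.0058 in wild-type cells. The mean of all probe sets of a gene gave 3 higher and 0 lower in CHOP-/- cells and 4 higher and 0 lower in wild-type cells.

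On the cap-binding side, the calls of Eif4e and of the helicase genes Eif4a1 and Eif4a2 depended on the scaling. Eif4e, the main cap-binding protein, changed by 0.11 ± 0.063 (adjusted p = 0.124) in CHOP-/- and 0.092 ± 0.063 (adjusted p = 0.214) in wild-type cells on its brightest probe set. Its other 3 tested probe sets gave -0.35, -0.13 and 0.91 in CHOP-/- cells and -0.0068, 0.55 and 1.24 in wild-type cells, so no single direction held for this gene. Eif4a1 and Eif4a2 changed by 0.13 ± 0.088 and 0.029 ± 0.045 in CHOP-/- cells and by 0.18 ± 0.088 and -0.09 ± 0.045 in wild-type cells, none past the threshold. Under median centring Eif4e passed at 0.26 in CHOP-/- and 0.29 in wild-type cells (adjusted p = 0.00665 and 0.00231), and Eif4a1 at 0.28 in CHOP-/- and 0.38 in wild-type cells (adjusted p = 0.0231 and 0.00264). Eif4a2 was then 0.17 (adjusted p = 0.011) in CHOP-/- cells, while quantile normalisation gave -0.096 (adjusted p = 0.0312) in CHOP-/- and -0.18 (adjusted p = 0.000331) in wild-type cells. Eif4h, a helicase cofactor related to eIF4B, rose by 0.11 ± 0.049 in CHOP-/- cells (adjusted p = 0.0467), a call that was lost without any 1 of 10 arrays and turned to -0.073 under quantile normalisation, and it changed by 0.0059 (adjusted p = 0.925) in wild-type cells. Eif4e2, a cap-binding protein that represses translation, fell in both genotypes. It averaged 7128 ± 429 with MG132 and 8560.4 ± 172 without it in CHOP-/- cells, and 7578 ± 646 with MG132 and 10127 ± 478 without it in wild-type cells, a change of -0.27 ± 0.057 in CHOP-/- and -0.42 ± 0.057 in wild-type cells. The CHOP-/- change was -0.12 (adjusted p = 0.114) under median centring. Eif4g2, a relative of eIF4G without the eIF4E-binding site, rose by 0.19 ± 0.048 in CHOP-/- and 0.19 ± 0.048 in wild-type cells. Both calls of Eif4g2 were lost under quantile normalisation (0.028 in CHOP-/- and 0.011 in wild-type cells, adjusted p = 0.524 and 0.813) and over the mean of its probe sets (0.040 and 0.12, adjusted p = 0.779 and 0.377).

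The genes of the 4E-binding proteins moved in opposite directions. Eif4ebp1, which encodes 4E-BP1, had signals of 26069, 25532.5, 26685 and 27876 in MG132-treated CHOP-/- cells and 16569, 17651, 17553.5 and 17046 in untreated ones. In wild-type cells they were 19379.5, 19642, 18754 and 19524 with MG132 and 12316, 13512, 13672 and 13435 without it. No treated array overlapped an untreated array of its genotype, and all CHOP-/- arrays lay above the wild-type arrays of the same treatment. Eif4ebp1 rose by 0.62 ± 0.042 (SE; adjusted p = 9.46e-11) in CHOP-/- cells and by 0.55 ± 0.042 (SE; adjusted p = 5.99e-10) in wild-type cells, with a difference between responses of 0.078 ± 0.06 (adjusted p = 0.364). Eif4ebp2, which encodes 4E-BP2, had 2168, 2719.9, 2511 and 2819 in treated CHOP-/- cells, against 3102, 3515, 2905 and 3804 in untreated ones. In wild-type cells it had 2549, 3099.8, 2322 and 2852 with MG132, against 3928, 4215, 4307 and 4304 without it. Treated arrays lay below the untreated arrays of their genotype, with a log2 change of -0.38 ± 0.093 (SE; adjusted p = 0.00139) in CHOP-/- cells and -0.63 ± 0.093 (SE; adjusted p = 5.27e-06) in wild-type cells. The other 3 tested probe sets of Eif4ebp2 gave -0.88, -1.09 and -0.32 in CHOP-/- cells and -0.83, -0.999 and -0.62 in wild-type cells, of which -0.32 did not pass (adjusted p = 0.111).

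Eif5, Eif5b and Eif6, which act at start codon recognition and subunit joining, rose in both genotypes. Eif5, the GTPase activator of eIF2, rose by 0.17 ± 0.055 in CHOP-/- and 0.25 ± 0.055 in wild-type cells, although quantile normalisation gave 0.025 (adjusted p = 0.608) in CHOP-/- cells. Eif5b, the GTPase that joins the ribosomal subunits, rose by 0.39 ± 0.095 in CHOP-/- cells and 0.27 ± 0.095 in wild-type cells. The wild-type call of Eif5b was lost without treated replicate 2 or untreated replicate 2 or 3 (0.18 to 0.24). A dimmer probe set of Eif5b fell in CHOP-/- cells (-0.45, adjusted p = 0.0185) and gave -0.21 in wild-type cells (adjusted p = 0.268). Eif6, which keeps the large subunit from joining early, averaged 19833 ± 386 with MG132 and 14672 ± 401 without it in CHOP-/- cells, and 18542 ± 1056 with MG132 and 12603 ± 836 without it in wild-type cells, a rise of 0.43 ± 0.049 in CHOP-/- and 0.56 ± 0.049 in wild-type cells. Eif5a, the hypusine-bearing factor that helps ribosomes through difficult stretches, changed by 0.13 ± 0.076 (adjusted p = 0.157) in CHOP-/- and 0.13 ± 0.076 (adjusted p = 0.154) in wild-type cells.

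The title of the series asks which responses depend on CHOP. The difference between the responses (CHOP-/- minus wild-type) compares the genotypes, and dependence on CHOP cannot be told apart from the cell isolation. This difference was positive for 4 members and negative for 4, where 14.2% of all tested genes were positive and 14.1% negative. The members' 10.3% in each direction was near the background. Eif4enif1, which encodes the transporter that takes eIF4E into the nucleus and binds it in P-bodies, had the largest positive difference, 0.43 ± 0.071 (SE; adjusted p = 0.000137). It averaged 4356 ± 130.0 with MG132 and 3607 ± 244 without it in CHOP-/- cells, and 3369 ± 87 with MG132 and 3763 ± 131 without it in wild-type cells, so that it rose by 0.27 in the knockout, against a change of -0.16 in wild-type cells. Eif4b, the helicase cofactor, had the same pattern, with a difference of 0.32 ± 0.068 (SE; adjusted p = 0.00127). Eif4b rose by 0.17 in CHOP-/- cells, where quantile normalisation gave 0.049 (adjusted p = 0.328), and changed by -0.15 in wild-type cells. Under median centring both wild-type values turned positive without passing (Eif4enif1 0.045, adjusted p = 0.442, and Eif4b 0.050, adjusted p = 0.448), and a second probe set of Eif4b rose in wild-type cells (0.24, adjusted p = 0.0151), while both differences between responses passed under every scaling run.

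Eif1a also rose more in CHOP-/- cells, with a difference of 0.29 ± 0.065 (SE; adjusted p = 0.00202). It averaged 12688 ± 643 with MG132 and 8357 ± 486 without it in CHOP-/- cells, and 15661 ± 104 with MG132 and 12644.5 ± 329 without it in wild-type cells. The knockout level was lower than the wild-type level at both treatments. The negative differences were -0.33 ± 0.072 for Eif2d, -0.32 ± 0.10 for Eif5a2 (a second eIF5A gene), -0.29 ± 0.089 for Eif2b1 and -0.23 ± 0.08 for Eif2b3. Eif5a2 rose in wild-type cells (0.28 ± 0.073), against -0.038 ± 0.073 in CHOP-/- cells (adjusted p = 0.674). Centring on all probe sets, an alternative added after the data were seen, left 0 of these 4 past the threshold, and their adjusted p then ran between 0.149 and 0.457. Over the mean of its probe sets, Eif2d had a difference of -0.29 (adjusted p = 0.128). The call of Eif5a2 was lost without CHOP-/- untreated replicate 4, wild-type treated replicate 2 or wild-type untreated replicate 3 or 4 (-0.30 to -0.26), and that of Eif2b3 without any 1 of 8 arrays (-0.23 to -0.19). Eif3d had a difference of 0.15 ± 0.053 (adjusted p = 0.0461) that was lost without any 1 of 15 arrays and was -0.23 (adjusted p = 0.453) over the mean of its probe sets. Leaving out wild-type treated replicate 2 left 2 negative differences.

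**Figure D3:**
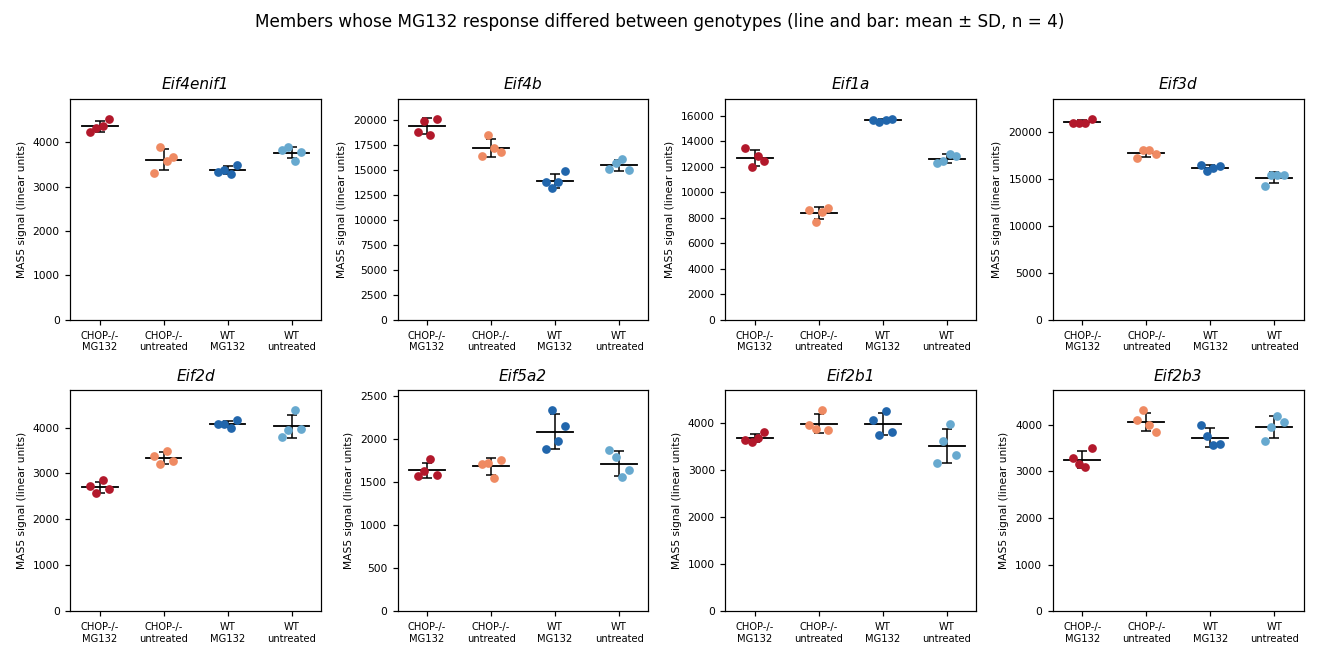
MAS5 signals (linear units, axis from 0) on each array for the 8 members whose response differed between genotypes, with the mean ± SD of 4 arrays as a line and bar. Eif4enif1 and Eif4b step up with MG132 in CHOP-/- cells and down in wild-type cells (up under median centring, not past the threshold), and Eif1a is lower in CHOP-/- cells at both treatments.

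Between genotypes, members went both ways. Without treatment 14 members were higher and 12 lower in CHOP-/- cells than in wild-type cells, where 28.6% of all tested genes were higher and 26.9% lower, and with MG132 13 were higher and 10 lower, where 30.7% of all tested genes were higher and 28.1% lower. The members' shares were 35.9% higher and 30.8% lower untreated and 33.3% higher and 25.6% lower with MG132. Among the 690 tested genes at or above 12338 signal units, 36.1% were higher and 16.4% lower untreated. With MG132, 39.6% of these 690 genes were higher and 16.7% lower. At both treatments 11 members were higher (28.2%, against 19.7% of all tested genes) and 8 lower (20.5%, against 18.4%), while 0 were called in opposite directions (2.82% of all tested genes). Median centring gave 17 higher and 8 lower untreated, and centring on all probe sets gave 17 higher and 5 lower with MG132. Median centring moved the untreated median of all tested genes from 0.010 to 0.081. Centring on all probe sets moved the median of all tested genes with MG132 from 0.021 to 0.12.

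**Figure D4:**
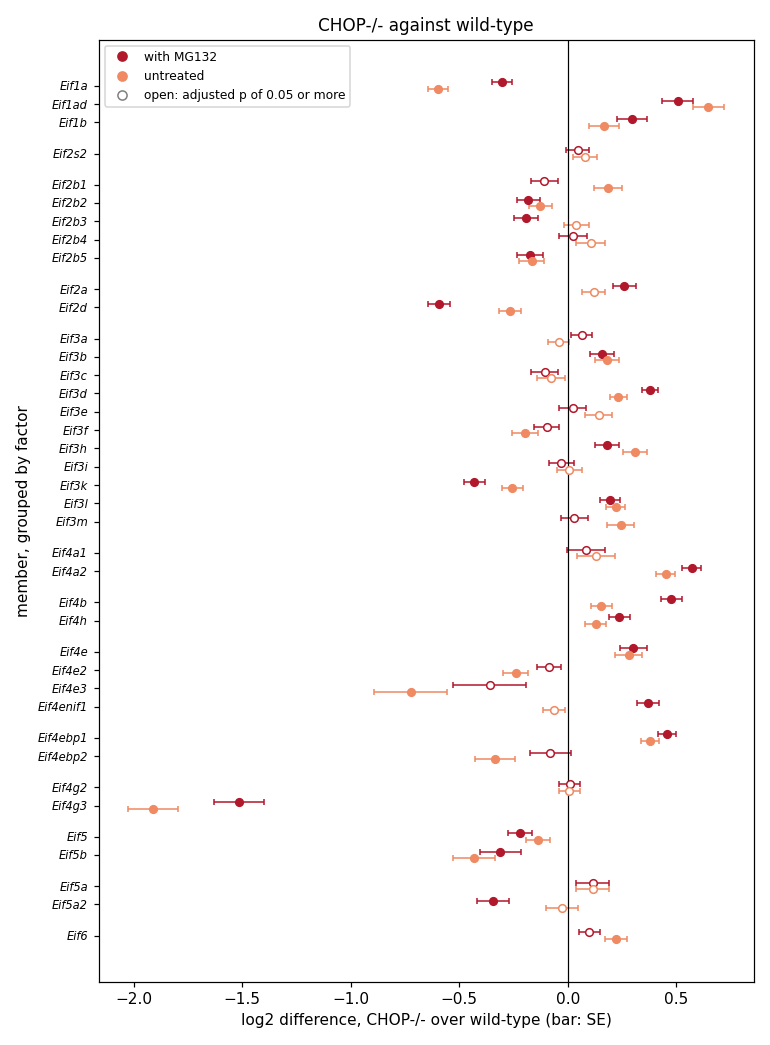
Difference of each tested initiation factor between genotypes (log2 of CHOP-/- over wild-type, bar: SE) with MG132 (red) and untreated (orange), grouped by factor, with open points where the adjusted p was 0.05 or more. Eif4g3 lies at -1.51 with MG132 and -1.91 untreated, and Eif1ad and Eif4a2 lie among the highest at both treatments.

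Eif4g3, an eIF4G paralog, differed most. Its brightest probe set had signals of 722, 823, 778 and 659 in MG132-treated and 708, 639.7, 619.8 and 616 in untreated CHOP-/- cells. In wild-type cells it had 1892, 2219, 2263 and 2258 with MG132 and 3371, 2280.1, 2013 and 2389.9 without it. The genotypes did not overlap, and treated and untreated arrays of a genotype did. The difference between genotypes was -1.51 ± 0.12 (SE; adjusted p = 6.02e-10) with MG132 and -1.91 ± 0.12 (SE; adjusted p = 1.65e-11) untreated. Both other tested probe sets of Eif4g3 were dim, with group means of 140 to 219 and 36.1 to 124 units. The brighter of them gave 0.072 with MG132 (adjusted p = 0.755) and -0.27 untreated (adjusted p = 0.224), and the dimmer gave -1.32 with MG132 (adjusted p = 0.000601) and -0.66 untreated (adjusted p = 0.0608), so the probe sets of this gene disagreed.

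Eif4e3, a cap-binding relative of eIF4E, was dim. Its signals were 183, 122, 146 and 164 in MG132-treated and 135, 144, 133 and 118 in untreated CHOP-/- cells. In wild-type cells they were 196, 204, 170.0 and 234 with MG132 and 183, 302, 221 and 223 without it. The untreated groups did not overlap and the treated groups did, with a difference of -0.72 ± 0.17 (SE; adjusted p = 0.00106) untreated and -0.36 ± 0.17 with MG132 (adjusted p = 0.0734). Eif1ad was higher in CHOP-/- cells by 0.51 ± 0.071 with MG132 and 0.65 ± 0.071 untreated, and Eif4ebp1 by 0.46 ± 0.042 with MG132 and 0.38 ± 0.042 untreated. Eif4ebp2 was lower in untreated CHOP-/- cells (-0.34 ± 0.093), although a second probe set was higher there (0.29, adjusted p = 0.0442).

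Eif4a2, the second helicase isoform, was higher in CHOP-/- cells by 0.57 ± 0.045 with MG132 and 0.45 ± 0.045 untreated, and Eif4b by 0.48 ± 0.048 with MG132 and 0.15 ± 0.048 untreated. Eif2d was lower in CHOP-/- cells, -0.59 ± 0.051 with MG132 and -0.27 ± 0.051 untreated, and Eif1a was lower too, at -0.30 ± 0.046 with MG132 and -0.60 ± 0.046 untreated. The untreated call of Eif2d was lost over the mean of its probe sets (-0.10, adjusted p = 0.396). Of the 11 eIF3 subunits, 4 were higher and 1 lower with MG132, where 30.7% of all tested genes were higher and 28.1% lower. Untreated, 5 were higher and 2 lower, where 28.6% of all tested genes were higher and 26.9% lower. Of the 690 tested genes at or above 12338 signal units, 39.6% were higher and 16.7% lower with MG132, and 36.1% higher and 16.4% lower untreated. Over the mean of their probe sets, Eif3h and Eif3l lost both calls (adjusted p 0.107 to 0.247) and Eif3m its untreated call (adjusted p = 0.306). Eif3d was higher by 0.38 ± 0.038 with MG132 and 0.23 ± 0.038 untreated, calls that were lost over the mean of its probe sets (0.0082 and 0.24, adjusted p = 0.967 and 0.171), and Eif3k, a small peripheral subunit, was lower at -0.43 ± 0.049 with MG132 and -0.26 ± 0.049 untreated. Eif5 and Eif5b were lower in CHOP-/- cells at both treatments, at -0.22 ± 0.055 and -0.31 ± 0.095 with MG132 and -0.14 ± 0.055 and -0.43 ± 0.095 untreated, and the untreated call of Eif5 was lost without CHOP-/- untreated replicate 2 or 4 or wild-type untreated replicate 3 or 4 (-0.14 to -0.079) and under median centring (-0.069, adjusted p = 0.427). Eif2s2 differed by 0.045 ± 0.055 with MG132 (adjusted p = 0.508) and 0.078 ± 0.055 untreated (adjusted p = 0.239). Eif4e was higher by 0.30 ± 0.063 with MG132 and 0.28 ± 0.063 untreated on its brightest probe set, but the other 3 gave -0.066, -0.90 and -0.48 with MG132.

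Lists of genes that act with these factors are set beside the shares of all tested genes, of which 25.7% rose and 36.8% fell in CHOP-/- cells and 27.2% rose and 36.9% fell in wild-type cells. Of 11 genes for eIF2 alpha kinases, phosphatase subunits and their regulators, 3 rose and 3 fell in CHOP-/- cells and 4 rose and 2 fell in wild-type cells. Ppp1r15a (GADD34), which brings the phosphatase to eIF2 alpha, rose by 2.27 ± 0.084 in CHOP-/- and 2.14 ± 0.084 in wild-type cells, and Impact, an inhibitor of GCN2 activation, by 1.81 ± 0.054 in CHOP-/- and 1.86 ± 0.054 in wild-type cells (log2, SE). The GCN2 gene Eif2ak4 fell, with changes of -0.72 ± 0.11 in CHOP-/- cells and -0.58 ± 0.11 in wild-type cells. Atf4, the transcription factor translated when eIF2 alpha is phosphorylated, averaged 25059 with MG132 and 16953 without it in CHOP-/- cells, and 16248 with MG132 and 11295 without it in wild-type cells.

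Of 19 initiation partners, 7 rose and 7 fell in CHOP-/- cells and 8 rose and 4 fell in wild-type cells, against the shares of all tested genes above. Paip2b, an inhibitor of the poly(A)-binding protein, rose by 1.02 ± 0.044 in CHOP-/- and 1.07 ± 0.044 in wild-type cells, and Denr, a ribosome recycling and reinitiation factor, rose by 0.41 ± 0.041 in CHOP-/- and 0.85 ± 0.041 in wild-type cells (difference -0.43 ± 0.058, adjusted p = 1.29e-05). Of 9 tested elongation and termination factors (10 listed), 5 rose and 1 fell in CHOP-/- cells and 5 rose and 2 fell in wild-type cells. Eef2k, the kinase that inhibits eEF2, rose by 0.39 ± 0.091 in CHOP-/- cells and changed by -0.46 ± 0.091 in wild-type cells (difference 0.85 ± 0.13, adjusted p = 5.65e-05), and it was lower in untreated CHOP-/- than in untreated wild-type cells (-1.21 ± 0.091).

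Of 13 tested genes of the mTORC1 pathway (14 listed), which phosphorylates the 4E-binding proteins, 7 rose and 4 fell in CHOP-/- cells and 8 rose and 3 fell in wild-type cells. Ddit4 (REDD1), an mTORC1 inhibitor, rose by 1.85 ± 0.065 in CHOP-/- and 1.03 ± 0.065 in wild-type cells, with a difference of 0.82 ± 0.092 (adjusted p = 1.79e-06). Sesn2, a leucine sensor that inhibits mTORC1, rose by 1.77 ± 0.10 in CHOP-/- and 1.85 ± 0.10 in wild-type cells, and Mtor, the kinase itself, fell, with changes of -0.76 ± 0.084 in CHOP-/- and -0.91 ± 0.084 in wild-type cells. Akt1s1 (PRAS40) and Rragc, a GTPase of amino acid sensing, rose in CHOP-/- cells by 0.71 ± 0.069 (Akt1s1) and 0.85 ± 0.042 (Rragc). Rragd, a gene of the same family, rose by 2.11 ± 0.30 in wild-type cells, and the differences between responses were -1.66 ± 0.42 for Rragd and -1.10 ± 0.16 for Deptor, another mTORC1 inhibitor. The wild-type changes of Akt1s1 and Rragc, the CHOP-/- change of Rragd and both changes of Deptor are not given here. Of the 2 mitochondrial initiation factor genes, 0 rose and 1 fell in each genotype.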

How the data were processed

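Total RNA of 16 culture plates, 4 per group, was biotin-labelled with a 3' IVT (in vitro transcription) kit for Affymetrix arrays, per the labels' protocols. The deposited signal intensities were made by the authors with MAS5, per the submitters' processing notes, with its version not given in the sources used here. Every deposited column had a mean of 1000 once its highest and lowest 2% of values were dropped, and no columns were identical. The table held 45101 probe sets, of which 34945 named 1 gene, 932 several and 9160 none, with 64 controls. Names came from the series' probe table, and 34741 of the single-gene probe sets matched RefSeq by gene ID.

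Per gene, the brightest single-gene probe set by mean signal was used. It was tested where that probe set lay above the array median on at least 4 of 16 arrays. Log2(signal + 16) was modelled by group over the 16 arrays together, using limma 3.58.1 (R 4.3.3) and a mean-variance trend, which left 12 residual and added 7.65 prior degrees of freedom. The 5 contrasts were two-sided, and Benjamini-Hochberg adjustment covered the 11451 genes tested, at a threshold of 0.05. A fold change is therefore on the log2(signal + 16) scale and is understated for dim genes, and the number of arrays limits the precision. Intervals after ± are SD for signals and SE for log2 changes. The fit was tested on simulated data.

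The members, gene lists and tests were chosen with earlier results of these data known. Values on every array are given for members called with a change of at least 0.7 in any contrast, for eIF2 subunits and for the 4E-binding proteins. Genes of pathway lists are named when called with a change of at least 0.7 in some contrast. Other list members are only counted. Alternatives were quantile normalisation, centring on the median of the tested genes, pseudocounts of 1 and 64, no filter, other choices of probe set, a replicate term, only the groups compared, and each array left out in turn. Centring on all probe sets and each further probe set of a gene were added after the data were seen. The searches for GGGCGG and CCAAT were also added to the plan.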

Additional observations from a re-analysis of the deposited data

Results flagged for a closer look

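In 8 of the 156 sets of 4 arrays (39 genes in 4 groups), 1 array stood apart from the other 3 by more than Dixon's 95% limit, and chance alone flags about 5% of such sets. Among CHOP-/- cells with MG132, these were Eif2a on replicate 2 (4552.5, others 5022 to 5100), Eif3b on replicate 1 (11503, others 12356 to 12447.5), Eif3d on replicate 4 (21411, others 20928 to 20984) and Eif4g2 on replicate 3 (33984, others 30265 to 30316). Among untreated CHOP-/- cells, they were Eif2b5 on replicate 2 (3683, others 3251 to 3315) and Eif3a on replicate 3 (20301, others 22062 to 22338). Among wild-type cells, they were Eif4g3 on MG132 replicate 1 (1892, others 2219 to 2263) and Eif3d on untreated replicate 1 (14210.4, others 15374 to 15467). No array was flagged for more than 1 gene.

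The response to MG132 differed between genotypes for 8 genes by the interaction term of the limma fit (CHOP-/- minus wild-type, log2). The positive differences were 0.43 for Eif4enif1, 0.32 for Eif4b, 0.29 for Eif1a and 0.15 for Eif3d. The negative ones were -0.33 for Eif2d, -0.32 for Eif5a2, -0.29 for Eif2b1 and -0.23 for Eif2b3. Eif4enif1, Eif4b and Eif1a passed under every scaling, probe set choice and left-out array that was run, while the calls of Eif3d, Eif2b3 and Eif5a2 depended on single arrays.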

How the results depend on the processing

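The 114 called pairs of a member and a contrast (of 195) included 20 that lost the call without some single array and 0 that changed sign. Without 1 array, the counts of higher and lower members ran over 20 to 25 and 5 to 6 for MG132 in CHOP-/- cells, 20 to 23 and 5 to 7 in wild-type cells, 3 to 4 and 2 to 6 for the difference between responses, 12 to 13 and 9 to 11 between genotypes with MG132, and 12 to 17 and 10 to 12 untreated. The members' medians ran over 0.16 to 0.20, 0.15 to 0.22, -0.029 to 0.024, 0.015 to 0.037 and 0.018 to 0.088 for the same 5 contrasts. The 2 negative differences came without wild-type MG132 replicate 2 and the 6 without wild-type untreated replicate 3, and the median of 0.018 without wild-type untreated replicate 1.

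Quantile normalisation gave members' medians of 0.049 (CHOP-/- response) and 0.086 (wild-type response) and 9 negative differences. Of all tested genes, 14.3% then had negative differences. Median centring gave medians of 0.33 and 0.38 for these responses, 3 lower members in the wild-type response and a median of 0.15 between untreated genotypes. The mean of all probe sets gave 15 higher members in the CHOP-/- response, 15 in the wild-type response and 9 between untreated genotypes. Centring on all probe sets gave 0 negative differences with a median difference of 0.087, and 5 lower members between treated genotypes with a median of 0.12. The medians of all tested genes were then 0.092 for the difference and 0.12 between treated genotypes, and 6.24% had negative differences. The cause was not tested. Both pseudocounts moved at most 1 of the 114 calls and no sign.

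Signs turned for single genes. Quantile normalisation gave Eif4h -0.073 in the CHOP-/- response and Eif3d -0.0058 in the wild-type response. Median centring gave Eif2b5 0.045, Eif4b 0.050 and Eif4enif1 0.045 in the wild-type response. The mean of all probe sets gave Eif2b5 0.048, Eif3d -0.18 and Eif4h -0.0070 in the CHOP-/- response, Eif4b 0.023 in the wild-type response, Eif3d -0.23 for the difference and Eif4e -0.29 between treated genotypes. Another probe set gave Eif4h -0.37, Eif4g2 -0.053, Eif5b -0.45 and Eif6 -0.062 in the CHOP-/- response. In the wild-type response, another gave Eif2a -0.019, Eif3m -0.17, Eif4b 0.24, Eif4g2 -0.047, Eif5b -0.21 and Eif6 -0.078. Between untreated genotypes, others gave Eif2d 0.065 and 0.22, Eif4h -0.16, Eif4e -0.22 and -0.16 and Eif4ebp2 0.29. Between treated genotypes, others gave Eif2d 0.098, Eif4h -0.74, Eif4e -0.066, -0.90 and -0.48 and Eif4g3 0.072.

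Replicate numbers did not pair the plates by the rule used, since same-numbered arrays correlated at -0.070 to 0.16 after group means were removed, and all 4 numbers matched their own best only in the MG132 contrast of CHOP-/- cells. With the replicate number as a block, the members' counts were 22 and 6 for MG132 in CHOP-/- cells, 23 and 6 in wild-type cells, 5 and 6 for the difference, 13 and 10 between treated and 16 and 12 between untreated genotypes. The block ended 0 of the 114 calls.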

Other observations

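8 of the members matched in RefSeq had a neighbouring gene whose start lay on the other strand, pointing away, within 1000 bases, a limit chosen after the data were seen, and in 4 pairs both genes were tested. In 2 of them the partners were called in opposite directions with MG132 in both genotypes. How often such pairs are called in opposite directions among all genes was not counted. Of all tested genes, 25.7% rose and 36.8% fell in CHOP-/- cells, and 27.2% rose and 36.9% fell in wild-type cells. Eif2b4 rose by 0.52 in CHOP-/- and 0.61 in wild-type cells, while Snx17, a sorting nexin of endosomal recycling, had changes of -0.24 (adjusted p = 0.00318) in CHOP-/- and -0.39 (adjusted p = 2.65e-05) in wild-type cells. Eif1ad rose by 1.08 in CHOP-/- and 1.22 in wild-type cells, while Banf1, a DNA-binding protein of the nuclear envelope, had changes of -0.19 (adjusted p = 0.00173) in CHOP-/- and -0.21 (adjusted p = 0.000944) in wild-type cells. Its nearest start that did not overlap that of Eif1ad lay 450 bases away.

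In the third pair, both partners rose in both genotypes. Txndc9, which has a start 802 bases from that of Eif5b, rose by 0.27 in CHOP-/- and 0.18 in wild-type cells, beside 0.39 in CHOP-/- and 0.27 in wild-type cells for Eif5b. Gtf2h3, a subunit of TFIIH that starts 17 bases from Eif2b1, fell in CHOP-/- cells (-1.05) and in wild-type cells (-0.31, adjusted p = 0.0146), with a difference between responses of -0.74 (adjusted p = 0.00089). Eif2b1 had -0.11 (adjusted p = 0.122) in CHOP-/- cells and rose by 0.18 (adjusted p = 0.0183) in wild-type cells, opposite to Gtf2h3 there, with a difference of -0.29 (adjusted p = 0.0179). The starts of Eif2b4 and Snx17 lie 165 bases apart. The 164 bases between them, at chr5:31193140-31193303 in GRCm38.p6, are shown along the minus strand, on which Eif2b4 lies, so that the last base stands next to the start of Eif2b4, with the CCAAT box (as ATTGG, its reverse complement) and the GC box core GGGCGG in capitals.
Snx17 to Eif2b4: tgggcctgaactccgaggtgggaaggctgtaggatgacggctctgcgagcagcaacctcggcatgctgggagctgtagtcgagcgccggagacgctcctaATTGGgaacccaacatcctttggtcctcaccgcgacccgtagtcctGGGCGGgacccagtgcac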
